A study of Mus musculus with 2 samples.

Results

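The regions described here are stretches of open chromatin in mouse T cells that lie in the wide spaces between genes, at least 100 kb from any place where a protein-coding gene starts. They were chosen from the peaks of 2 libraries. Overlapping peaks on chromosomes 1 to 19 were merged, and a merged region was kept if both libraries had a peak in it, if its strongest summit lay outside every protein-coding gene, and if that summit was 100 kb or more from every protein-coding transcription start. Of 65318 merged regions with a peak in both libraries, 4431 met the rule, which is 6.78% (exact Clopper-Pearson 95% interval 6.59 to 6.98). Intervals given with shares cover counting error only, and regions are not replicates.

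The assay was ATAC-seq, in which a transposase cuts and tags DNA that is not packed tightly on nucleosomes. The material was primary T cells of C57BL/6NJ mice in 1 group, with no treatment or genotype contrast named, sex not collected and age unknown. The 2 libraries are labelled biological replicates 1 and 2 but share a single donor record, so the spread between them may be technical. The labels link a CD4+ T-cell differentiation protocol, and the names of the peaks contain Th0, 72hrs and ASTARR.insert without explanation.

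Enhancers are DNA elements that raise transcription from a distance by contacting a promoter through a fold in the chromatin. In lymphocytes several well studied genes, among them Myc, Gata3 and Bcl11b, are known to use enhancers that lie far out in neighbouring stretches without coding genes. Such stretches, called gene deserts, also flank many genes for cell adhesion and synapses that are used in the nervous system. In T cells open distal elements are known to be bound by RUNX and ETS factors, and, after activation, by AP-1, a pair of FOS, JUN or BATF family proteins that binds the letters TGACTCA on DNA. The factor CTCF binds a longer sequence and holds the ends of chromatin loops.

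The sequences below show what the summits of such regions look like. Each is the 200 bases around the summit on the plus strand of GRCm38 (mm10), read 5′ to 3′, and capitals mark the matches to the consensus named. The region nearest to Cdk6 (chr5:3152148-3152347) was the strongest with an AP-1 match, and the one nearest to Sh3bgrl2 (chr9:83652861-83653060) the strongest with a CTCF match. The region nearest to Npy (chr6:49656665-49656864) was the strongest with an ETS match, and the one nearest to Anxa5 (chr3:36349160-36349359) the strongest with AP-1 letters joined to IRF letters. These 4 were picked from a part of the far regions that lie in no annotated gene, and strongest holds only within that part. The RUNX example nearest to Crim1 (chr17:78087023-78087222) and the strongest region nearest to Gata3 (chr2:9294520-9294719) were chosen after values were seen.
Cdk6, AP-1: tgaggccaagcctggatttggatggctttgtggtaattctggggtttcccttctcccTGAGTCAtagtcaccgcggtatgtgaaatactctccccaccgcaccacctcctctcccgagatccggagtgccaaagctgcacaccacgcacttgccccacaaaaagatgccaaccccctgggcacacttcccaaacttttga
Sh3bgrl2, CTCF: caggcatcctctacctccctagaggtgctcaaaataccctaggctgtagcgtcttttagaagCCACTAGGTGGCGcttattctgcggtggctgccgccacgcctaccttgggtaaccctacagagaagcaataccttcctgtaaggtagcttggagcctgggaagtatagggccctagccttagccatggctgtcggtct
Npy, ETS: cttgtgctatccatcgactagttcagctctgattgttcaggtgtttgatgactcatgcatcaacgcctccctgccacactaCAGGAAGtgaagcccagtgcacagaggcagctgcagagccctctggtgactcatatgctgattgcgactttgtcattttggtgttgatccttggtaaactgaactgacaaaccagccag
Anxa5, AP-1/IRF: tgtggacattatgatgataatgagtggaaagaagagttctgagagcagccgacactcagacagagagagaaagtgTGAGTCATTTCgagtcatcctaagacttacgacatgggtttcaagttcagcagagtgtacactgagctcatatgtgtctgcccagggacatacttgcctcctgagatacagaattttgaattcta
Crim1, RUNX: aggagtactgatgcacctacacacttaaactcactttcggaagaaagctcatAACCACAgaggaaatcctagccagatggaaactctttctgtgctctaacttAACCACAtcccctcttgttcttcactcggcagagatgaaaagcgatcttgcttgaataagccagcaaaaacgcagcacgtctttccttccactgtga
Gata3, AP-1: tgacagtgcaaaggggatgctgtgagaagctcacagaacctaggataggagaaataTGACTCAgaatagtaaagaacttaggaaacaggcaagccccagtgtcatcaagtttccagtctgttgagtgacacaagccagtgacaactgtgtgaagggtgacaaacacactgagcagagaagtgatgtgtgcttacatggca
The Cdk6 region had a fold enrichment of 22.0 in replicate 1 and 19.8 in replicate 2, and its match, on the minus strand, sat 40 bp to the left of the summit. The CTCF match nearest to Sh3bgrl2 sat 32 bp to the left of its summit, in a region with fold enrichments of 14.1 and 13.8. The Crim1 region held 2 RUNX matches, both on the minus strand, and had fold enrichments of 19.5 and 17.6.

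Fold enrichment here means the deposited signal value of a peak, read as the height of its summit over the local background of the same library. Replicate 1 came with 78104 called peaks and replicate 2 with 74733, and 76230 and 72904 of these were on chromosomes 1 to 19. Read depth is unknown, so an unlisted region may be closed or merely too weakly covered to be called. The label T cell was checked at promoters: 8 of 9 T-cell genes (Cd3d, Cd3e, Cd3g, Cd2, Cd5, Cd28, Lck and Cd4, but not Cd247) had an open promoter region in both libraries, with fold enrichments from 2.45 to 9.91 in replicate 1 and from 2.61 to 10.6 in replicate 2. So had 2 of 6 B-cell genes (Pax5 and Blnk), 1 of 6 myeloid genes (Cd14) and Cd8b1 but not Cd8a. Pax5 read 10.6 and 9.96, Blnk 5.09 and 5.34, Cd14 9.03 and 8.85, and Cd8b1 9.32 and 7.53, while Cd4 read 2.84 and 3.24. The promoters looked at therefore do not set T cells apart by height. An open promoter is not expression, and the part of other cells in the values was not tested.

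Open regions were sparse this far from genes but as strong as those closer in. The genome that met the distance rule measured 737 Mb, or 30.8% of chromosomes 1 to 19, and held 6.01 of the regions per Mb. Intergenic sequence 1 to 100 kb from a start held 29.1 shared regions per Mb, and introns and exons at least 100 kb from a start held 10.6 per Mb. Within the distance rule the density fell with every step outwards. It was 13.3 per Mb at 100 to 150 kb, 7.01 per Mb at 200 to 300 kb, 1.65 per Mb at 500 to 1000 kb and 0.475 per Mb beyond 1000 kb. The median distance to the nearest protein-coding start was 181 kb. Of the 4431 regions, 301 lay 500 kb or more and 36 lay 1000 kb or more from it.

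The strength of the regions did not follow their density. The median fold enrichment of the far intergenic regions was 7.28 in replicate 1 and 7.0 in replicate 2. For nearer intergenic regions it was 7.02 and 6.75, and for promoter regions, within 1000 bp of a start, 10.8 and 10.3. At 100 to 150 kb the medians were 7.45 and 7.21, and at 500 to 1000 kb they were 7.61 and 7.03. Beyond 1000 kb they were 6.79 and 5.62, over 36 regions. The far regions were narrow, with a median peak width of 606 and 603 bp against 1222 and 1206 bp at promoters.

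**Figure D1:**
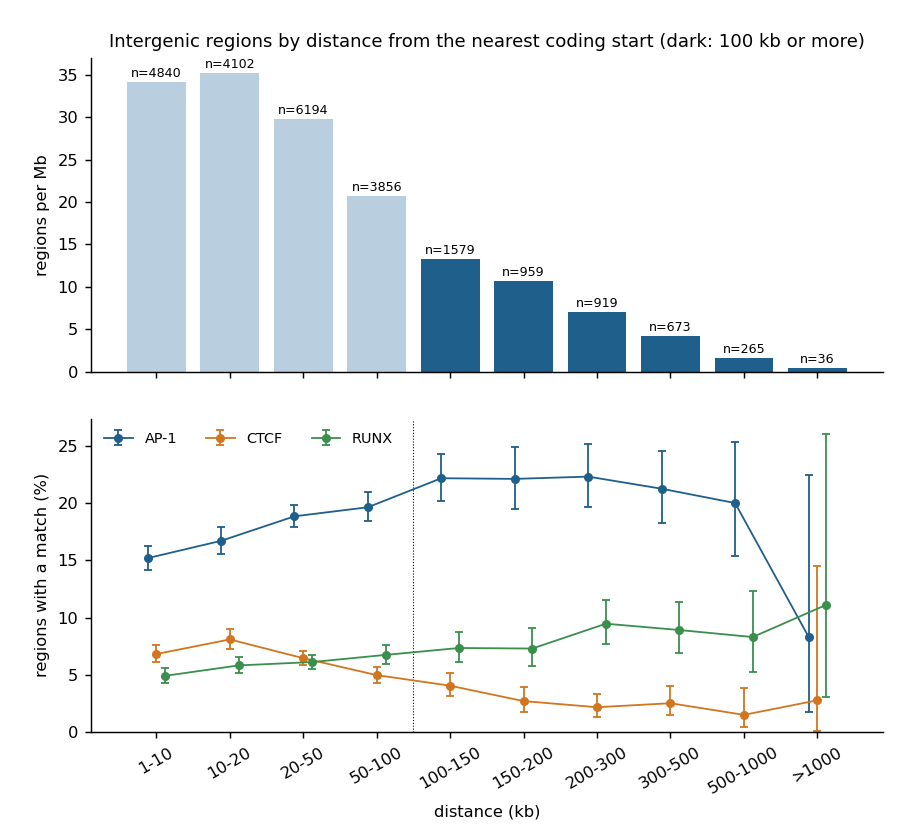
Shared intergenic regions per Mb of sequence (top, bars from 0, number of regions above each bar) and percent of regions with an AP-1, CTCF or RUNX match in the central 100 bp (bottom, exact 95% intervals), by distance in kb from the nearest protein-coding start; dark bars and the right of the dotted line are the far regions. Density falls from 13.3 per Mb at 100 to 150 kb to 0.475 per Mb beyond 1000 kb, and the CTCF share falls from 8.09% at 10 to 20 kb to 1.51% at 500 to 1000 kb.

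The 2 libraries gave close values for most far regions, a set that the rule limited to regions with a peak in both. The ratio of replicate 1 to replicate 2 had a median of 1.04, with quartiles of 0.943 and 1.15, and replicate 1 was the higher in 61.4% of regions. The fold enrichments differed by more than 1.5-fold in 144 of 4431 regions, 3.25% (2.75 to 3.81), where 2.47% of all shared regions did. On the log2 scale the Pearson correlation across the regions was 0.94. It describes regions of these 2 libraries, which share a cell source, and no p is given.

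The regions past 1.5-fold were weaker than most, with a median of the mean fold enrichment of 5.49 against 7.14 for all far regions, and none exceeded 13.3. A region nearest to Negr1 (chr3:156424940-156425520) had fold enrichments of 11.4 in replicate 1 and 5.52 in replicate 2, and 91% of the 200 bp at its summit was repeat sequence. Regions nearest to Dhx35 and to Brms1l both read 7.12 and 3.82. In the other direction, a region 659.9 kb from Zeb2 read 4.47 and 9.34, one nearest to Sulf2 3.31 and 6.37, and one 186 kb from Myc 4.47 and 8.28.

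**Figure D2:**
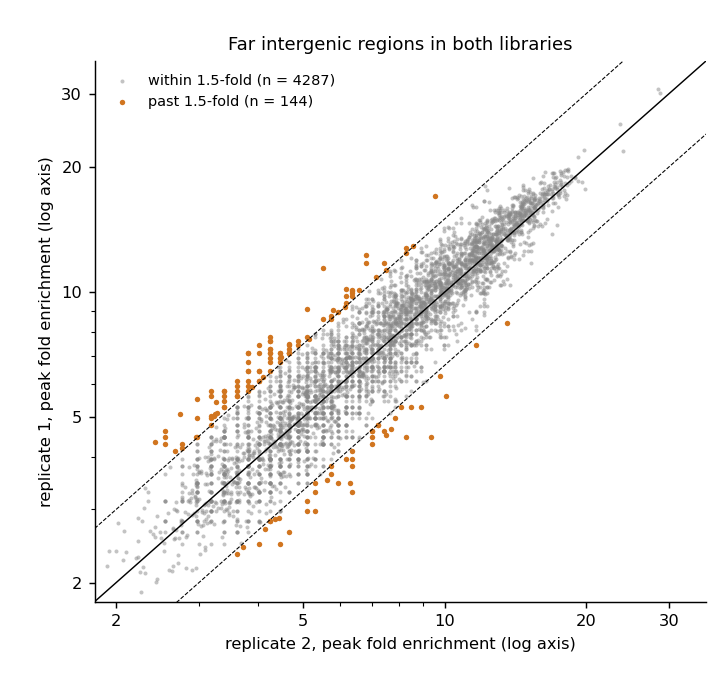
Fold enrichment of each of the 4431 far intergenic regions in replicate 2 (x) and replicate 1 (y), both on log axes, with the line of equal values and dashed lines at 1.5-fold. The 144 orange points lie past 1.5-fold, none with a mean above 13.3, and the 2 strongest regions lie at the upper right, near 30 in replicate 1 and above 28 in replicate 2.

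Of the merged regions that replicate 1 placed far from genes, 84.9% (83.9 to 85.9) had a peak in replicate 2, and of those of replicate 2, 88.2% (87.3 to 89.1) had one in replicate 1. For all merged regions these shares were 86.4% and 90.2%. Sharing followed strength. Among far regions of replicate 1 with fold enrichments from 1.67 to 2.98, the lowest of 10 equal steps of all regions, 146 of 339 were shared, and in the highest step all 479 were. The 787 far regions of replicate 1 alone had a median fold enrichment of 3.64, and the 594 of replicate 2 alone 3.61.

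The 2 strongest regions stood above the others in both libraries. The first by mean fold enrichment, nearest to Gm8797 (chr3:5860341-5860821), read 30.9 in replicate 1 and 28.4 in replicate 2, and the 31 bases at its summit occur 8 times in the genome. The third, nearest to Esp38 (chr17:39846136-39847913), read 25.4 and 23.5 over a merged width of 1778 bp and lies in a gene annotated as ribosomal RNA. The second, nearest to Arhgef26 (chr3:62159051-62159489), read 30.0 and 28.7, and its 31 summit bases occur once. The summit sequences of the first and second are shown because their letters read, from general knowledge and not from a match to any file used here, as stretches of the large ribosomal RNA.
Gm8797: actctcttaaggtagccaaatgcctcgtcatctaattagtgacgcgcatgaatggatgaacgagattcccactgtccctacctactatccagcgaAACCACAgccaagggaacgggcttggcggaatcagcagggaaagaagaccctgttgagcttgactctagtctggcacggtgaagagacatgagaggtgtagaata
Arhgef26: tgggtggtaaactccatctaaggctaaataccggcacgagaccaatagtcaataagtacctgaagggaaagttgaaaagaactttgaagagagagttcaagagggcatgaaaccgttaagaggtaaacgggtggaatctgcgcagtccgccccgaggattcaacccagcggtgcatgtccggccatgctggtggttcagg
Capitals in the Gm8797 sequence (chr3:5860448-5860647, plus strand) mark a RUNX match on the minus strand, and the Arhgef26 sequence (chr3:62159098-62159297, plus strand) holds no AP-1, CTCF, ETS or RUNX match. What part repeated copies play in their height was not tested. In all, 30 of the 4431 regions had more than 1 exact copy of their 31 summit bases, and 2 of the 10 strongest were among them.

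Below these, the strongest far regions were spread over many loci. The region nearest to Neto1, 697 kb from its start, read 21.8 and 24.0, with a GC content of 68.0%. The regions nearest to Cdk6, which encodes a kinase of the cell cycle, and Anxa5, both shown above, read 22.0 and 19.8, and 21.1 and 19.2. A region nearest to Ppp3ca (chr3:136556069-136556936), which encodes the catalytic subunit of calcineurin, the phosphatase that activates NFAT in T cells, read 18.4 and 19.6. One nearest to Vav3 (chr3:109747612-109748377), which encodes an exchange factor of antigen receptor signalling, read 19.7 and 18.2. The regions nearest to Med13l and to Zfp386 read 19.8 and 18.3, and 19.6 and 18.3, and the last lies at the start of Ighv1-47, a variable segment of the antibody heavy chain.

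The 5 regions farthest from a coding start were not the strongest. The outermost, 1805 kb from Cntnap5b (chr1:101901892-101903171), read 6.95 and 6.37, and its neighbour, 1795 kb away, 2.65 and 3.61. One nearest to Pcdh7, 1690.2 kb away, read 5.63 and 5.09. Next to Kcnt2, a pair 1652 and 1638 kb away read 10.2 and 10.1, and 11.9 and 8.70. At the inner edge, the regions just past 100 kb, nearest to Nup35, Tspan5 and Armc2 (100.006, 100.007 and 100.106 kb), read 2.65 and 2.97, 5.96 and 6.58, and 12.3 and 9.24. Those just short of it, nearest to Ttc29, Ccnl1 and Zfp706 (99.997, 99.995 and 99.989 kb), read 12.3 and 10.1, 5.30 and 5.94, and 3.68 and 2.79. Values on both sides of the edge thus overlapped.

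AP-1 matches were more frequent in the far regions and CTCF matches less frequent than in intergenic regions nearer to genes. The AP-1 letters TGACTCA, on either strand, lay in the central 100 bp of 966 far regions, 21.8% (20.6 to 23.0), against 17.6% (17.1 to 18.2) of the 18992 nearer ones and 15.5% of all shared regions. In 2 windows of the same length centred 500 bp to the sides, 1.77% of windows of far regions held the match. The CTCF consensus lay in 132 far regions, 2.98% (2.50 to 3.52), against 6.60% (6.25 to 6.97) of the nearer regions and 4.38% of all. Its flank share was 0.0226%. A match describes the letters and does not show that the factor is bound.

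Other consensus sequences known from T cells differed in whether they were gathered at the summits. NF-kB matches were in 4.63% of far regions, 4.18% of nearer ones and 3.65% of all, with 0.891% in the flanks of the far ones. Forkhead matches were in 0.948% of far regions, 0.943% of nearer ones and 0.925% of all. The flanks of the far ones held more forkhead matches, 1.48%. RUNX letters TGTGGTT were in 8.10% (7.32 to 8.94) of far regions, 5.88% (5.55 to 6.22) of nearer ones and 5.25% of all, with 2.11% in the flanks of the far ones. STAT letters TTCNNNGAA were in 6.91% (6.18 to 7.69) of far and 4.80% (4.50 to 5.12) of nearer regions, and 4.31% of all. For ETS, CAGGAAG or CCGGAAG, the shares were 9.75% (8.89 to 10.7) and 9.22% (8.81 to 9.64), whose intervals overlap, with 10.2% of all. NFAT letters TGGAAA were in 13.9% of far regions, 10.9% of nearer ones and 9.80% of all, but the flanks of the far ones already held 11%. GATA matches were in 5.12% (4.49 to 5.81) of far regions, 3.98% (3.71 to 4.27) of nearer ones and 3.44% of all. In each of these groups the flanks held more, 6.42%, 5.35% and 5.15%. The HNF1 consensus, known from liver, was in 0 of 4431 (upper bound 0.0832%). It was in only 2 of all 65318 shared regions, too rare to set the far regions apart.

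AP-1 matches rarely stood on the same bases as those of RUNX or ETS. AP-1 and RUNX were both present in 50 far regions and overlapped in 1, and AP-1 and ETS in 76 and 1. STAT and NFAT matches overlapped in 23 of the 53 regions that held both, and STAT and ETS matches in 10 of 36. The letters searched for STAT, NFAT and ETS all contain GAA. The AP-1/IRF composites, which BATF with IRF4 is known to bind in activated T cells, contain the AP-1 letters by design. The composite with a 4-base gap lay in 21 far regions (0.474%) and the adjoining one in 40 (0.903%), against 0.311% and 0.553% of nearer regions, and the intervals of far and nearer regions overlapped for both.

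The matches also differed in where they sat. AP-1 matches filled the centre: in bins of 20 bp they were in 5.24% of far regions 30 bp to the left of the summit, 4.94% at 10 bp and 5.44% at 30 bp to the right. CTCF matches were in 1.0% and 1.38% of far regions in the bins centred 30 bp to the left and right. In the bins centred 10 bp to the left and right they were in 0.0226% and 0.0451%. The nearer regions had the same gap, with 3.10% and 2.77% in the bins at 30 bp and 0.0316% and 0.0421% in those at 10 bp. In a central window of 50 bp, which leaves the sites beside the summit out, CTCF was therefore in 0.0677% of far and 0.0737% of nearer regions, and the difference between them was lost.

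**Figure D3:**
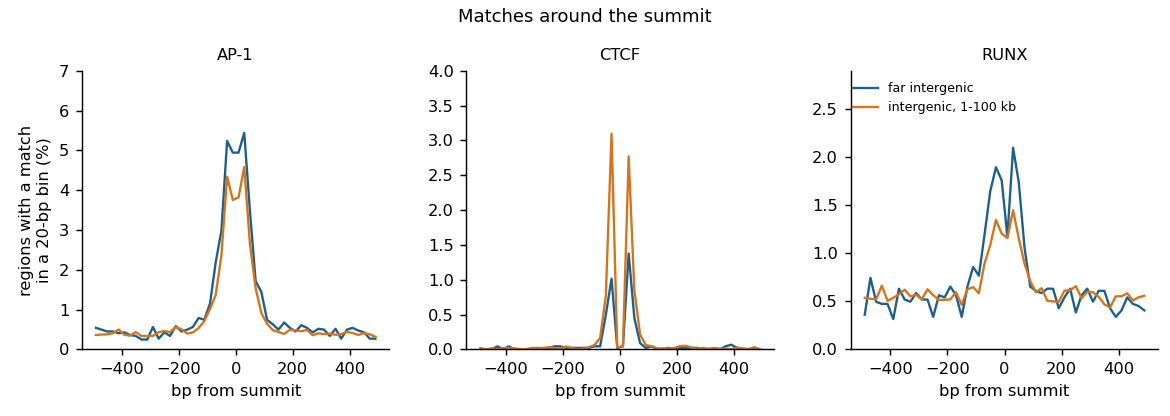
Percent of regions with an AP-1, CTCF or RUNX match whose middle lies in each 20-bp bin, by distance in bp from the summit, for the 4431 far regions (blue) and 18992 intergenic regions 1 to 100 kb from a start (orange); the y axes differ. AP-1 fills the central 100 bp, CTCF forms a peak on each side of an empty centre and is lower in the far regions, and RUNX is higher in them beside the summit.

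Among the far regions the AP-1 share was higher in stronger ones and the CTCF share was not. The far regions were put into 4 equal groups by mean fold enrichment. In the lowest group 16.7% (14.6 to 19) held AP-1 letters. The shares in the next groups were 19% and 22.9%, and in the highest it was 28.6% (26 to 31.4). CTCF shares from the lowest group to the highest were 2.62%, 3.16%, 3.88% and 2.26%. Nearer intergenic regions, grouped the same way, also rose in AP-1, from 13.3% in the lowest group to 22.6% in the highest. Unlike the far regions, they rose in CTCF too, from 3.37% to 8.30%. Far regions with AP-1 letters had a median fold enrichment of 8.43 and 8.05, and the 2704 regions with none of AP-1, CTCF, ETS and RUNX 6.95 and 6.78. Those with 2 AP-1 matches, 70 regions, had medians of 10.3 and 9.74. CTCF regions were narrower, at 483 and 498 bp.

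Base composition moved with distance and was looked at within 3 ranges of GC content. The median GC at far summits was 46.0% against 49.0% for nearer intergenic regions. In the lowest range CTCF was in 1.16% of far and 4.65% of nearer regions, in the middle range in 3.36% and 5.58%, and in the highest in 4.31% and 7.76%, so it was lower in the far regions of each range, with intervals that did not overlap. RUNX was higher in the far regions of each range, by 9.17% to 7.76%, 8.10% to 7.43% and 7.13% to 4.48%, with overlapping intervals in the first and second. For AP-1 the intervals overlapped in the lowest range, at 22.3% (20.2 to 24.5) and 22.6% (21.3 to 24.1). In the middle range it was 24.7% (22.5 to 27.1) against 20.9% (19.8 to 22.1), and in the highest 18.8% (16.9 to 20.8) against 14.3% (13.6 to 15). The highest range had no upper limit. Its median GC was 51.5% in far and 53% in nearer regions, so composition was not fully matched there. Regions in gene bodies at least 100 kb from a start had shares close to those of the far intergenic regions, with 22.1% AP-1, 3.39% CTCF and 6.78% RUNX, and all 3 intervals overlapped.

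Far regions were spread unevenly over the stretches without coding genes. The genome that met the rule fell into 1720 intervals, of which 830 held at least 1 far region and 890 held none. The 20 fullest held 749 regions, 16.9% of all, in 20.1 Mb, which is 2.73% of the sequence. Of the 208 intervals of 1 Mb or more, 103 held none. The empty ones included 4.47 Mb between Tenm3 and Aga, 4.44 Mb between Pcdh20 and Pcdh9, and 3.36 Mb between the cadherin genes Cdh6 and Cdh9. Chromosome 13 had the highest density, 11.5 per Mb, and chromosome 5 the lowest, 3.53 per Mb.

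The fullest interval lay downstream of Myc, the growth-promoting transcription factor that rises when T cells are activated. Between Myc and Gsdmc it held 73 regions in 1.62 Mb, from 107 to 1696 kb beyond the Myc start. Their fold enrichments ran from 2.15 to 18.9 in replicate 1 (median 6.55) and from 2.22 to 17.3 in replicate 2 (median 5.94). The strongest, 389 kb downstream (chr15:62374194-62375464), read 18.9 and 17.3 and lies at the far end of Pvt1, a long noncoding RNA gene that holds 26 of the regions. On the other side, between A1bg and Myc, were 33 more, with medians of 5.96 and 6.37. In all, 79 regions had Myc as the nearest coding start, the most of any gene. In the downstream interval 17 of 73 regions held AP-1 letters, 4 ETS, 1 RUNX and 0 CTCF.

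The largest cluster also lay there. Counting runs of 3 or more regions in which neighbouring summits lay close together (by at most 12496 bp in any run), 1593 regions (36%, 34.5 to 37.4) fell into 395 clusters. The largest held 16 regions over 70.9 kb (chr15:62779017-62849939), 792 to 862 kb from Myc, with median fold enrichments of 5.85 and 5.71. The next held 12 regions near Itgb1 (chr8:128503880-128575225), which encodes the beta chain of the VLA integrins, with medians of 7.72 and 6.37. One near Olig3 (chr10:19167415-19227247) held 11, with 6.62 and 5.52. Another 6 clusters held 10 regions each, nearest to Ptger4, Id2, A1bg, Gm5426, 3110018I06Rik and Spdye4c.

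Clustered and single regions differed in CTCF. It was in 1.38% (0.867 to 2.08) of clustered and 3.88% (3.2 to 4.65) of other far regions, while AP-1 was in 21.1% (19.1 to 23.2) and 22.2% (20.7 to 23.8). Clustered regions were not the stronger ones, with medians of 6.86 and 6.58 against 7.45 and 7.34. Nearer intergenic regions showed the same pattern, so it was not particular to the far ones. CTCF was in 4.98% (4.5 to 5.5) of clustered and 7.68% (7.19 to 8.18) of other nearer regions. The clustered nearer regions also had the lower median fold enrichment in both libraries. In clusters lay 36% of far and 39.8% of nearer regions. The same limit on the gap was used for both, at densities of 6.01 and 29.1 regions per Mb. The shares therefore do not compare clustering at equal density.

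Bcl11b is required for T-cell identity, and the desert downstream of it is known to hold a distant enhancer used when T cells commit. The interval from 641 to 1829 kb downstream of its start, between Vrk1 and 3110018I06Rik, held 54 regions, 42.9 per Mb. Their median fold enrichment was 5.68 in both libraries, and the strongest, 1354 kb from Bcl11b (chr12:106649468-106650117), read 18.1 and 14.7. By nearest coding start, 30 of the 54 belonged to 3110018I06Rik and 24 to Vrk1, and none to Bcl11b. Another 6 far regions, outside this interval, were nearest to Bcl11b at 170.3 to 251 kb, with medians of 6.87 and 6.05. A nearest gene is used throughout as a name for a position, and which gene a region acts on was not measured. AP-1 letters were in 11 of the 54, RUNX in 4, ETS in 4 and CTCF in 0.

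Gata3, the factor of CD4 and type 2 helper T cells, had 46 regions on its downstream side, 108 to 1204 kb from its start. They read 2.34 to 17 in replicate 1 (median 8.06) and 2.87 to 17 in replicate 2 (median 7.83). The strongest, 584 kb away, is shown among the sequences above and read 17 in both libraries. AP-1 letters were in 11 of the 46, RUNX in 2, ETS in 1 and CTCF in 0. Id2, an inhibitor of E proteins, had 43 regions on its upstream side at 113 to 1091 kb, with medians of 6.62 and 7.17 and a strongest of 15.6 and 15.2 at 210.0 kb (chr12:25305756-25306649).

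**Figure D4:**
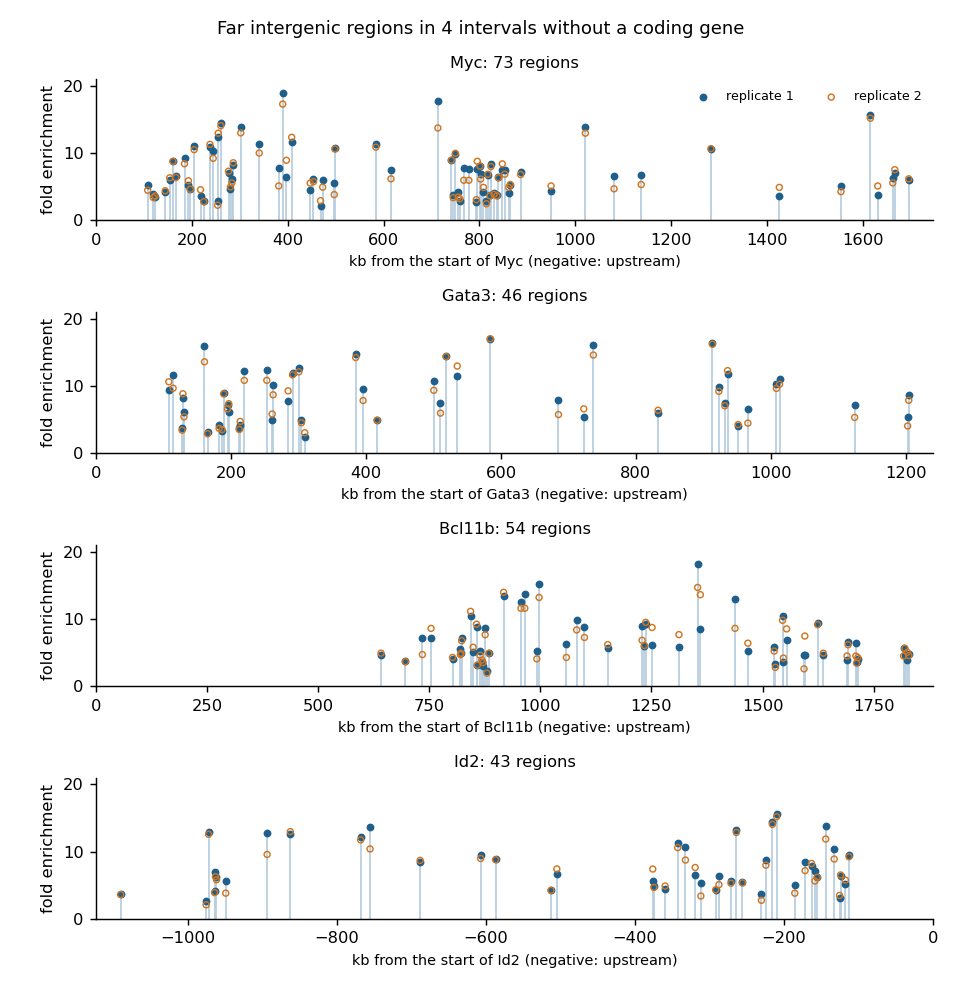
Fold enrichment of each far region (filled, replicate 1; open, replicate 2) against its distance in kb from the start of Myc, Gata3, Bcl11b or Id2, one stretch without a coding gene per panel; negative distances are upstream. The 73 Myc, 46 Gata3 and 54 Bcl11b regions all lie downstream and the 43 Id2 regions upstream, and the libraries nearly coincide at most regions.

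Values for 4 further intervals among the 20 fullest, picked after their values were seen for a flanking gene known from lymphocytes, are as follows. The interval between Ptger4, a prostaglandin E2 receptor gene, and Dab2 held 43 regions with medians of 6.95 and 7.37. Between Foxo1, a factor of naive T cells, and Cog6 were 41, of which 17 were nearest to Foxo1 and 24 to Cog6, and RUNX letters were in 11 of these and AP-1 in 5. The interval upstream of Cblb, which encodes a ubiquitin ligase that restrains T-cell activation, held 39 regions with higher medians, 9.93 and 8.70, and a strongest of 19 and 16.2. The densest of the 20 fullest intervals, between Bcl2l11 and Spdye4c, held 32 regions in 0.265 Mb, or 120.7 per Mb. All 32, of which 14 are nearest to Bcl2l11 and 18 to Spdye4c, lie inside the noncoding gene Gm14005, also known as Morrbid, which is known to regulate the death gene Bcl2l11 in other blood cells.

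By nearest coding start, the 4431 regions were spread over 1082 genes. After Myc and Gata3 came Klf6, a zinc finger factor, with 37, 3110018I06Rik with 34, Trib2, a pseudokinase, with 32, Cblb and Id2 with 31 each, and Ptger4 with 29. Trps1, a GATA-type repressor, had 29, and Cited2, a transcriptional coregulator, 28. Median fold enrichments over these 10 genes ran from 6.32 for Trib2 to 9.93 for Cblb in replicate 1 and from 6.09 for 3110018I06Rik to 10.2 for Cblb in replicate 2. Genes whose own promoter was open in both libraries were nearest to 3643 of the regions, 82.2%. Their territory, the sequence nearest to them that met the rule, held 8.25 regions per Mb, and that of genes with no such promoter region 2.67 per Mb.

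Gene lists showed how uneven the deserts were. The lists were chosen with earlier results of these data known, so the counts describe them and test nothing. Of 44 T-lineage regulators, 26 had any territory, and 24 of these were nearest to at least 1 region, 370 regions in 10.8 Mb, or 34.3 per Mb. Of 35 cytokine and receptor genes 6 had territory, and all 6 had a region, 49 in 1.31 Mb, or 37.3 per Mb. Of 54 developmental factors, 17 of 45 with territory had a region, 62 in 20.2 Mb, or 3.07 per Mb. Of 42 adhesion and synapse genes, 3 of 39 with territory had one, 6 regions in 53.2 Mb, or 0.113 per Mb. Over all genes, 1082 of 2741 with territory had a region, and the density was 6.01 per Mb.

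Among the T-lineage regulators, Ets1 had 27 regions with medians of 8.94 and 8.37, and Satb1, a chromatin organizer of thymocytes, 21 with 7.09 and 6.62. Foxo1 had 17, Runx1 16, and Maf, Nr4a3 and Tox 12 each. Bcl6 had 11 and Prdm1 10, a pair of repressors that are known to oppose each other, with medians of 4.80 and 6.16, and 5.96 and 5.73. Zeb2 had 8, Lef1 6 and Zeb1 5, and the Zeb1 regions had the highest medians of the listed genes with 5 or more, 12.1 and 11.3. Nr4a2 and Rora had territory of 0.738 and 0.250 Mb and no region.

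Among cytokine and receptor genes, Ptprc, which encodes the phosphatase CD45, had 19 regions with medians of 6.45 and 5.81. Icos, a costimulatory receptor gene, had 12 and Cxcr4, a chemokine receptor gene, 10. Among developmental factors Sox4, which is also expressed in lymphocytes, had 14 regions, with medians of 5.10 and 4.88. Sall3 had 8, Tshz1 7, and Lmo4 and Sox9 6 each. Many others had wide territories and no region, such as Nr2f1 with 1.24 Mb and Nr2f2 with 1.10 Mb. In the adhesion and synapse list Pcdh7 was nearest to 3 regions, Cdh6 to 2 and Cdh2 to 1, while Pcdh17 had 3.17 Mb and none.

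**Figure D5:**
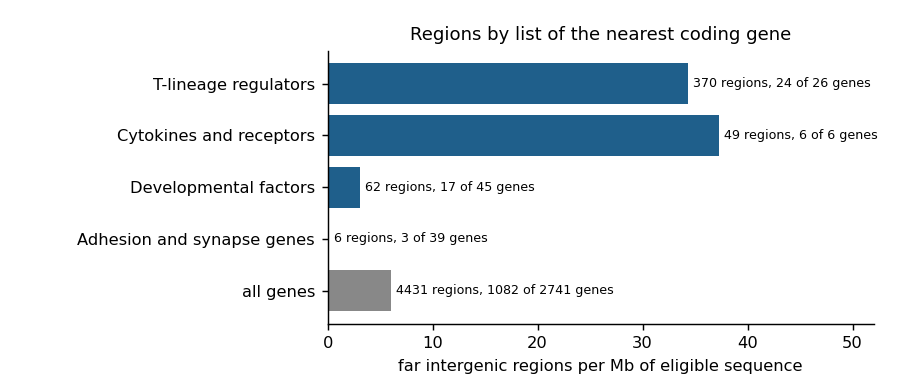
Far intergenic regions per Mb of eligible sequence nearest to the genes of each list (bars from 0), with the number of regions and the genes that have a region among those with territory. T-lineage regulators (34.3 per Mb) and cytokines and receptors (37.3 per Mb) lie above all genes (6.01 per Mb), and adhesion and synapse genes (0.113 per Mb) below.

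Intergenic here refers to protein-coding genes, and many of the regions lie in or beside noncoding ones. Inside a noncoding gene were 1006 regions (22.7%), 804 of them in long intergenic noncoding RNA genes. This share was higher than in nearer intergenic regions (14.6%) and in all shared regions (10.2%). At the start of a noncoding gene, within 1000 bp, were 292 (6.59%, 5.88 to 7.36). That share was like those of nearer intergenic regions (7.03%, 6.67 to 7.4) and of all shared regions (6.54%). In no gene and at no start lay 3295 (74.4%), against 81.9% of nearer intergenic regions. After Gm14005 and Pvt1, 2610307P16Rik, nearest to Sox4, held 21 regions, AC169509.1 and Lncpint 16 each, and Gm19585, nearest to Satb1, 15.

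Regions at noncoding starts were richer in CpG and wider than the other far regions. Of the 292, 11% had 10 or more CpG dinucleotides in 200 bp, against 2.08% of the other far regions. AP-1 letters were in 14.4% against 22.3%, RUNX letters in 10.6% against 7.92% and CTCF in 3.77% against 2.92%. No intervals were computed for these shares. RUNX letters were in 60% of the 10 regions at antibody variable gene segments and 80% of the 5 at pseudogenes of such segments. At the 168 long intergenic noncoding RNA starts they were in 6.55%, so the higher RUNX share did not hold across kinds of start. Their median widths were 679 and 676 bp against 601 and 598 bp, and their median fold enrichments 7.69 and 7.27 against 7.25 and 7.0. The 168 at long intergenic noncoding RNA starts had medians of 8.34 and 7.77. CpG-rich regions were still rare, 118 of 4431 or 2.66%, against 76.9% of promoter regions, and 73 of the 118 lay in no gene and at no start.

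The antigen receptor loci differ in length, so their counts of regions cannot be compared as openness. The antibody heavy chain locus Igh (chr12:113254830-116010093) held 25 regions with medians of 6.45 and 7.21, the T-cell receptor locus Tra 9 with 5.63 and 5.52, and Trb 6 with 5.29 and 4.80. The light chain loci Igk and Igl and the locus Trg held 0, and Igl and Trg span only 0.199 and 0.132 Mb. RUNX letters were in 60% of the 10 regions at the start of an antibody variable gene segment. They were also in 80% of the 5 at the start of a pseudogene of such a segment. Segments of one family are known to resemble each other, but how much sequence these regions share was not tested. Of the 30 far regions with more than 1 exact copy of their summit bases, 4 lie in the Igh locus.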

How the data were processed

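The ATAC-seq peak lists of 2 libraries of 1 group were used as deposited, on mm10. In each list the authors gave per peak a score, a signal value read here as a fold enrichment (a ratio), and −log10 p and −log10 q values, per the format named in the deposited notes. The aligner, peak caller and threshold are not given in the sources used here, and peaks were called per library. Peaks overlapping by 1 bp or more were merged. Gene models came from GENCODE mouse release 21 and sequence from RefSeq's GRCm38.p6. Consensus matches were searched on both strands in the central 100 bp of summits, with 28 consensus sequences. Scripts used Python 3.11.15, numpy 2.4.6, pandas 2.3.3, scipy 1.17.1 and matplotlib 3.10.9, and were tested on simulated data. With 1 group no test between groups could be made.

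The members and lists were chosen with earlier results of these data known. Regions named were the 10 strongest, the 5 farthest, the 5 largest clusters, the 3 with the largest ratio each way and the 3 on each side of 100 kb. Genes named were those nearest to these, the 10 nearest to most regions, and listed genes nearest to 5 or more. Intervals, noncoding genes, receptor loci, listed genes with fewer regions and promoter markers were chosen after their values were seen. Alternatives varied the q threshold, the overlap, the distance, the gene set, the window, the cluster gap and the library.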

Additional observations from a re-analysis of the deposited data

How the results depend on the processing

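Of 113 values under other settings, 64 stayed close to the reported one (for counts and densities, within 1.5 times; for medians, within the spread of the libraries; for shares, within the exact interval) and 49 moved, and no difference in AP-1 or RUNX share between far and nearer regions changed sign. The number of far regions was 8287 at 50 kb, 1893 at 200 kb and 434 when genes of any type counted, and their share 12.7%, 2.9% and 0.664%, or 6.28% with starts of all transcripts of coding genes, an alternative chosen after seeing the data. Density was 3.58 per Mb at 200 kb and 2.61 per Mb with genes of any type. The median fold enrichment, 7.14 as the mean of both libraries, was 7.66 at a −log10 q of at least 5, 9.01 for the 50000 strongest peaks, 7.37 when each peak had to cover 50% of the other, 6.86 with genes of any type and 6.37 to 6.45 when 1 library was left out. The median width was 631 bp at the stricter q, 696 bp for the strongest peaks, 614 bp with the stricter overlap, 616 bp at 50 kb, 595.5 bp at 200 kb, 580.0 bp with genes of any type, 602 bp with all transcripts and 540.0 to 550.0 bp without 1 library. AP-1 was in 23.9% for the strongest peaks, 10.9% in 50 bp and 29.4% in 200 bp. CTCF was in 3.91% at 50 kb, 2.22% at 200 kb, 2.07% with genes of any type, 0.0677% in 50 bp and 3.57% in 200 bp. The share at noncoding starts was 4.67% within 500 bp and 9.57% within 2 kb. It was not computed with genes of any type, where it is 0 by construction. The share in clusters was 33.7% at the stricter q, 21.6% for the strongest peaks, 34.4% with the stricter overlap, 38.8% at 50 kb, 32.0% at 200 kb, 24.2% with genes of any type, 7.67% with gaps of 5 kb, 50.7% with gaps of 20 kb and 38.8% to 42.4% without 1 library. The share past 1.5-fold was 2.47% at the stricter q and 1.19% for the strongest peaks. Sharing was 80.5% in replicate 1 and 83.6% in replicate 2 with the stricter overlap, and 91.8% in replicate 2 at the stricter q. No paired analysis was possible because the series holds 1 group. Read depth is unknown, so weak regions of 1 library alone cannot be told from regions under the threshold of the other.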
